A study of Mus musculus with 2 samples.

Results

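Pi16-Dpp4 adventitial-type fibroblasts were described in day 6 wounds of aged and young mice. They were 340 of 2834 fibroblasts, and 340 of the 8871 cells that passed the quality filters. Fibroblasts were taken as cells with at least 1% of their UMIs (unique molecular identifiers, the counted transcripts) on the collagen genes Col1a1, Col1a2 and Col3a1 and under 0.1% on the myeloid genes Lyz2, Tyrobp and Fcer1g. Each fibroblast was scored by the mean of ln(1 + UMIs per 10000) over Pi16, Dpp4, Efemp1, Cd55 and Sema3c, and the top 12% over both libraries were the Pi16-Dpp4 cells. The other 2494 fibroblasts were the contrast.

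The series holds 1 aged library, from 24-month mice, and 1 young library, from 2-month mice. Both come from wild-type male C57BL/6 mice with 10 mm dorsal skin wounds through the full thickness, with several mice pooled per library and all wound cells loaded after digestion with collagenase and dispase. The series concerns the senescence response of wounds and how it changes with age. Since each age is 1 library without a replicate, no test was made, and age cannot be told apart from the animals pooled or from how each library was made. Intervals are at 95% and hold counting error only.

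Fibroblasts with Pi16 and Dpp4 are known from many mouse tissues, where they lie around larger vessels and in the fascia below the dermis. Pi16 is a secreted peptidase inhibitor that also sits at the cell surface, and Dpp4, or CD26, is a surface dipeptidase that trims chemokines. In mouse fat and skin such cells are known as a reservoir that can give rise to more specialised fibroblasts. Efemp1 is the matrix protein fibulin-3, Cd55 protects cells from complement, and Sema3c is a secreted semaphorin.

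The score had no gap at the threshold. It ran from 0 to 2.98, the lowest Pi16-Dpp4 cell had a score of 1.61, and 74 Pi16-Dpp4 cells and 95 other fibroblasts lay within 0.1 of the threshold. The class is therefore a range of a continuous score. The 20 cells just inside had medians of 7.97 Pi16 and 2.40 Dpp4 UMIs per 10000, and the 20 just outside had 9.18 and 2.22. All 5 score genes were detected in 197 of 199 aged and 138 of 141 young Pi16-Dpp4 cells. They were all detected in 529 of 1163 aged and 541 of 1331 young other fibroblasts. A high score calls for most of these genes, so this gap is set by the rule. Median depths were 42977 UMIs in aged and 39197 UMIs in young Pi16-Dpp4 cells, and 52581 UMIs in aged and 42951 UMIs in young other fibroblasts. In myeloid barcodes, which should lack Pi16, a Pi16 UMI was found in 7.11% of aged and 7.40% of young barcodes at medians of 13908 and 16764 UMIs.

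**Figure D1:**
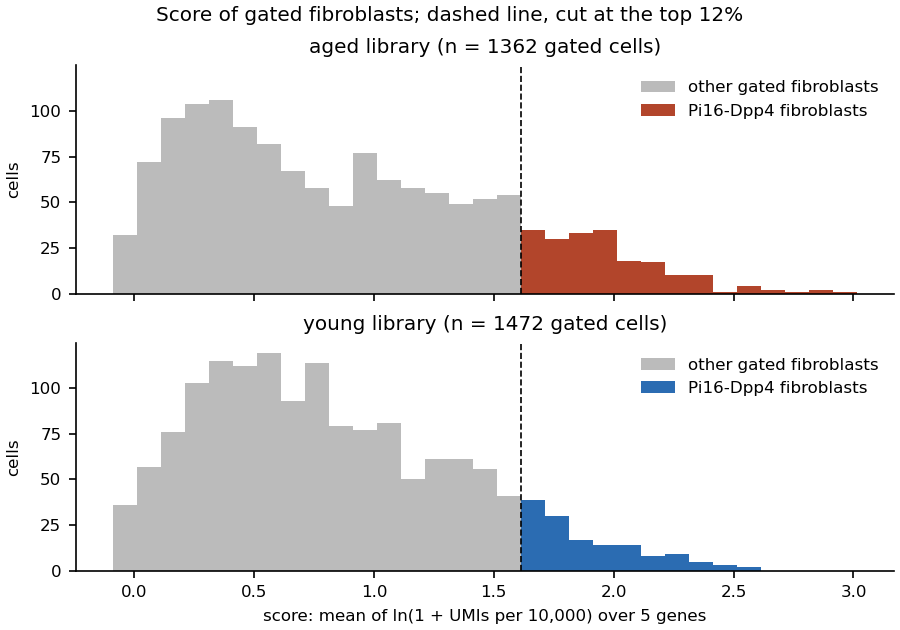
Number of fibroblasts (vertical axis) by the score over Pi16, Dpp4, Efemp1, Cd55 and Sema3c (horizontal axis) in the aged library above and the young library below. The coloured bars right of the dashed line are the 199 aged and 141 young Pi16-Dpp4 cells; the score runs through the threshold without a gap.

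The aged library held a larger share of Pi16-Dpp4 cells. They were 199 of 1362 aged fibroblasts, 14.6% (12.8 to 16.6), against 141 of 1472 young fibroblasts, 9.58% (8.12 to 11.2), by exact Clopper-Pearson intervals. The ratio was 1.53 (1.22 to 1.91). Of all kept cells they were 4.73% in the aged and 3.03% in the young library, and this ratio was 1.56 (1.25 to 1.95). The score itself chose these cells, so the shares are a description. The ratio was 1.37 with Dpp4 left out of the score and 1.70 with Pi16 left out.

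Summed over the Pi16-Dpp4 cells of a library, the score genes were close between ages except Dpp4. Levels are CPM, the UMIs of a gene per 1000000 UMIs of the summed cells. Dpp4 had 430.3 CPM in aged and 304 CPM in young Pi16-Dpp4 cells, and 88.7 and 80.2 CPM in other aged and young fibroblasts. Pi16 had 1373 and 1501 CPM in aged and young Pi16-Dpp4 cells, against 225 and 199.9 CPM in the others. Each of these genes chose the cells, so their excess over other fibroblasts is not a finding. The threshold on their mean was the same for both libraries, so like levels at both ages are in large part set by the rule. The Dpp4 difference is a description as well.

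Genes outside the score that are known to mark these cells ran with it. Of 33 such programme genes 31 are in the deposited tables, and all 31 had at least 20 UMIs in the sets compared. In each library 26 of 31 were 1.5-fold or more higher in Pi16-Dpp4 cells than in other fibroblasts, where 5.91% of all genes in the aged and 3.51% in the young library were. The 5 others in each library were Stmn4, Gpx3, Uchl1 and Il33, with Mfap5 in the aged library, at 1.19-fold, and Procr in the young, at 1.42-fold. Of these Uchl1 was 1.5-fold or more lower in the young library, where 5.09% of all genes were. Its log2 ratio there was -0.85 (5 CPM added), and -0.45 with the mean over cells. Of the higher genes, Dact2 and Ugp2 fell below the 1.5-fold mark without the 10 highest cells of each set. Their log2 ratios were then 0.29 and 0.43 in the aged and 0.02 and 0.46 in the young library. In the young library Mfap5 and Gfpt2 fell below the mark too, to 0.45 and 0.55. Leaving out 10 cells thins the Pi16-Dpp4 cells more than the others by construction. Position around vessels was not measured. The median log2 ratio of the list (5 CPM added to each value) was 1.15 in the aged and 1.10 in the young library, against -0.03 over all genes in both. These cells were cut from the same data, so the excess is a description with no test.

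Surface proteins were among the programme genes. Cd34, a sialomucin of progenitor and endothelial cells, had 499 and 615 CPM in aged and young Pi16-Dpp4 cells, against 196 and 236 CPM in other fibroblasts. Scara5, a receptor for ferritin, had 277 and 253 CPM against 46.6 and 44.5. Both were higher in Pi16-Dpp4 cells of each library, and Scara5 by 5.93-fold in the aged and 5.69-fold in the young. Ly6a, the stem cell antigen Sca-1, was 1.96-fold and 1.82-fold higher, and Cd248, or endosialin, 2.17-fold and 2.25-fold.

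Matrix genes of the programme were also higher. Tnxb, which encodes tenascin-X, had 757 and 802 CPM in aged and young Pi16-Dpp4 cells, against 277 and 328 CPM in the others. Clec3b, or tetranectin, a plasminogen-binding protein, had 906 and 991 CPM against 286 and 295. Fbn1, the microfibril protein fibrillin-1, was 2.01-fold and 2.05-fold higher, and the procollagen processing enhancer Pcolce2 3.81-fold and 3.14-fold. Has1, which makes hyaluronan, was 2.27-fold higher in aged and 1.67-fold higher in young Pi16-Dpp4 cells.

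**Figure D2:**
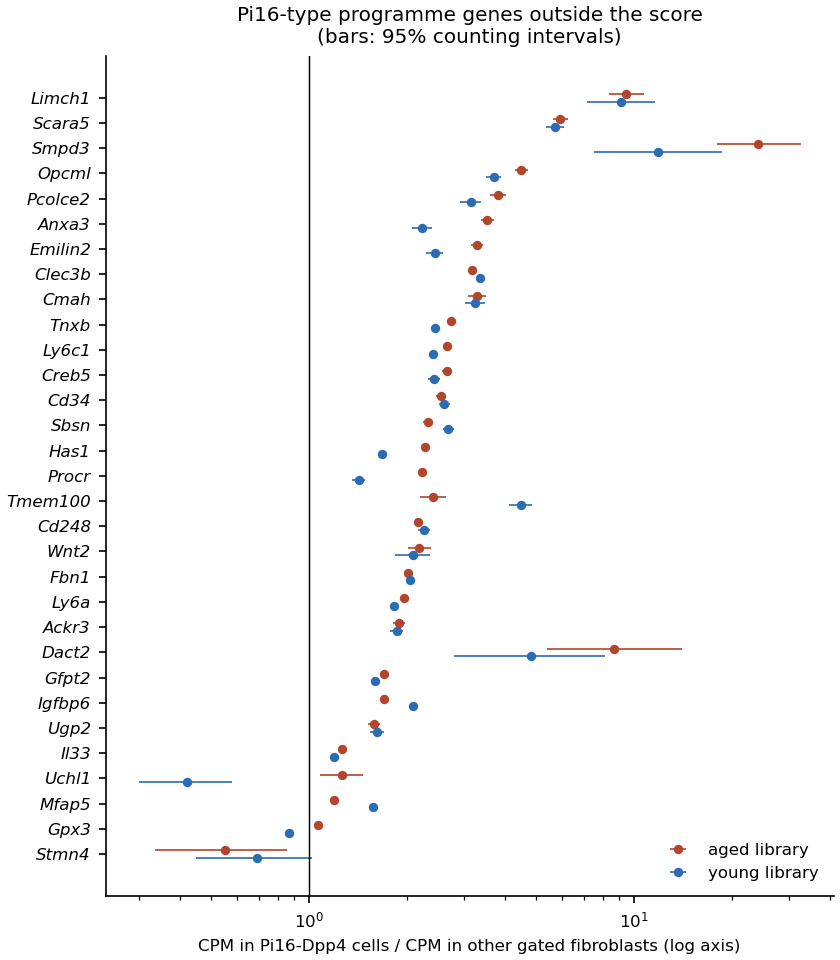
Ratio of CPM in Pi16-Dpp4 cells to CPM in other fibroblasts (horizontal log axis) for the 31 programme genes outside the score, with 95% counting intervals as bars; aged and young libraries are in separate colours. Points lie right of 1 for most genes, up to Limch1 at 9.46-fold, Scara5 at 5.93-fold and Smpd3 at 24.0-fold in the aged library. With 5 CPM added to each value Smpd3 ranks below Limch1 and Scara5 there, so its 24.0-fold rests on low counts. Stmn4 lies left of 1 in both libraries, and Uchl1 in the young library.

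Over all genes outside the score, 138 of 13369 (1.03%) were 2-fold or more higher in Pi16-Dpp4 cells in both libraries and 207 (1.55%) were 2-fold or more lower. Since these cells were chosen from the same data, these percentages carry no test. Of the 15 most raised genes, several act on secreted signals. Igfbp5, which binds insulin-like growth factors, had 695 and 596 CPM in aged and young Pi16-Dpp4 cells, against 143 and 124 CPM in the others. Bmp3, a member of the bone morphogenetic protein family that opposes other members, had 75.7 and 46.8 CPM against 5.37 and 4.82. Ltbp1, which holds latent TGF-beta in the matrix, had 734 and 270.0 CPM against 166 and 82.7. Igfbp5 was at like levels at both ages, whereas Ltbp1 was highest in the aged Pi16-Dpp4 cells.

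Enzymes of retinoid and steroid metabolism were in the same group of 15. Aldh1a3, which makes retinoic acid, had 133 and 60.8 CPM in aged and young Pi16-Dpp4 cells, against 18.4 and 6.25 CPM in other fibroblasts. Akr1c18, a steroid dehydrogenase that inactivates progesterone, had 152 and 48.6 CPM against 15.5 and 5.08. Both were also higher in aged than in young Pi16-Dpp4 cells, by a ratio of 2.19 for Aldh1a3 and 3.13 for Akr1c18. Tek, the receptor of angiopoietins best known from endothelium, had 59.2 and 48.1 CPM against 8.01 and 7.70. The transcription factor Ebf2, known from precursors of brown fat, was 3.60-fold and 3.97-fold higher, and Krtdap, first described in keratinocytes, 8.92-fold and 8.03-fold.

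The 15 genes lowest in Pi16-Dpp4 cells included Acta2, Crabp1, Spp1, Tnn, Il11 and histone genes. Acta2, smooth muscle actin, had 3.56 and 3.84 CPM in aged and young Pi16-Dpp4 cells, against 176 and 98.5 CPM in the others. Crabp1, which binds retinoic acid in the cytoplasm, had 0.919 and 1.40 CPM against 66.4 and 134. Spp1, or osteopontin, had 3.10 and 5.42 CPM against 571 and 160.1. All 3 were lower in Pi16-Dpp4 cells of both libraries.

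Tnn, or tenascin-N, had 5.51 and 36.0 CPM in aged and young Pi16-Dpp4 cells, against 182 and 224 CPM in other fibroblasts, and in the young Pi16-Dpp4 cells 10 cells held 99.5% of its UMIs. Il11, a cytokine that acts on fibroblasts themselves, had 7.93 and 27.6 CPM against 217 and 189. Of the 15 lowest genes 4 encode histones that are made in S phase, such as H2ac24 with 12.1 and 3.67 CPM against 162 and 147 CPM. The cell cycle list was lower as a whole, with 20 of 24 genes in the aged and 15 of 24 in the young library at 1.5-fold or more below the other fibroblasts, where 6.30% and 5.09% of all genes were. Its summed level was 225 and 107 CPM in aged and young Pi16-Dpp4 cells, against 606 and 344 CPM in the others.

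Contractile and collagen genes differed in extent. Of the contractile list, 9 of 14 genes in the aged and 10 of 15 in the young library were 1.5-fold or more lower in Pi16-Dpp4 cells, where 6.30% and 5.09% of all genes were, with median log2 ratios of -1.28 and -0.66. Of 20 collagen genes 9 were lower in each library, set against the same shares. Only 1 of 20, Col14a1, was higher, which is near the share of all genes, 5.91% in the aged and 3.51% in the young library. Col14a1, a collagen that associates with fibrils, had 1977 and 1618 CPM in aged and young Pi16-Dpp4 cells, against 936 and 896 CPM in the others. Col12a1, which associates with fibrils too, had 248 and 214 CPM against 778 and 709, the opposite direction. The fibrillar collagen Col3a1, one of the genes of the fibroblast gate, was at 1.14-fold and 1.10-fold.

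The matricellular genes were split. Fn1, or fibronectin, was 1.83-fold higher in aged and 1.81-fold higher in young Pi16-Dpp4 cells, and Ccn3 was 2.15-fold and 1.67-fold higher. Tnc, or tenascin-C, which marks healing matrix, had 428 and 577 CPM in aged and young Pi16-Dpp4 cells, against 3101 and 2774 CPM in the others. Postn, or periostin, had 1011 and 1568 CPM against 1832 and 2332. Of 17 genes of this list 3 were 1.5-fold or more higher in each library, where 5.91% of all genes in the aged and 3.51% in the young library were. In the aged library 6 and in the young 9 were lower, where 6.30% and 5.09% of all genes were.

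Complement genes were more often higher than lower in Pi16-Dpp4 cells, while genes of hyaluronan, chemokines and cytokines were split. Of 33 chemokine and cytokine genes 7 were 1.5-fold or more higher and 10 lower in the aged library, and 4 higher and 9 lower in the young, where 5.91% and 3.51% of all genes were higher and 6.30% and 5.09% lower. Of 20 proteoglycan and hyaluronan genes 6 were higher and 3 lower in the aged library, and 3 higher and 3 lower in the young. Ugdh, which makes the sugar nucleotide used for hyaluronan, was 1.94-fold higher in aged and 1.64-fold higher in young Pi16-Dpp4 cells. Of the complement genes, 7 of 14 in the aged and 6 of 15 in the young library were 1.5-fold or more higher, where 5.91% and 3.51% of all genes were, and 0 and 1 were lower. C3, the central complement component, had 2260.1 and 2085 CPM in aged and young Pi16-Dpp4 cells, against 833 and 1058 CPM in the others, and C4b was 2.44-fold and 1.96-fold higher. Ccl11, or eotaxin, had 333 and 206 CPM against 110.0 and 111. Inhba, which encodes a subunit of activin, had 204 and 329 CPM against 1379.9 and 1132, lower in Pi16-Dpp4 cells at both ages.

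The programme list rose from bin to bin along the score. The fibroblasts were divided by score into 8 bins of about 12%, of which the highest is the Pi16-Dpp4 cells. From the lowest to the highest bin the programme list rose in the aged library through 5927, 7938, 9625, 11989, 13759, 16200, 18036 and 22019 CPM, and in the young library through 5854, 8260, 9511, 10943, 12580, 14208, 16829 and 20193 CPM. Acta2 went the other way, with 489.7 CPM in the lowest and 3.56 CPM in the highest aged bin, and 428 and 3.84 CPM in the lowest and highest young bins. In the bin next to the highest Acta2 had 13.1 CPM in the aged and 16.4 CPM in the young library, so its largest fold difference between neighbouring bins was at the highest bin in both libraries. These bins are of cells within a library, so the order is a description of the 2 libraries.

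**Figure D3:**
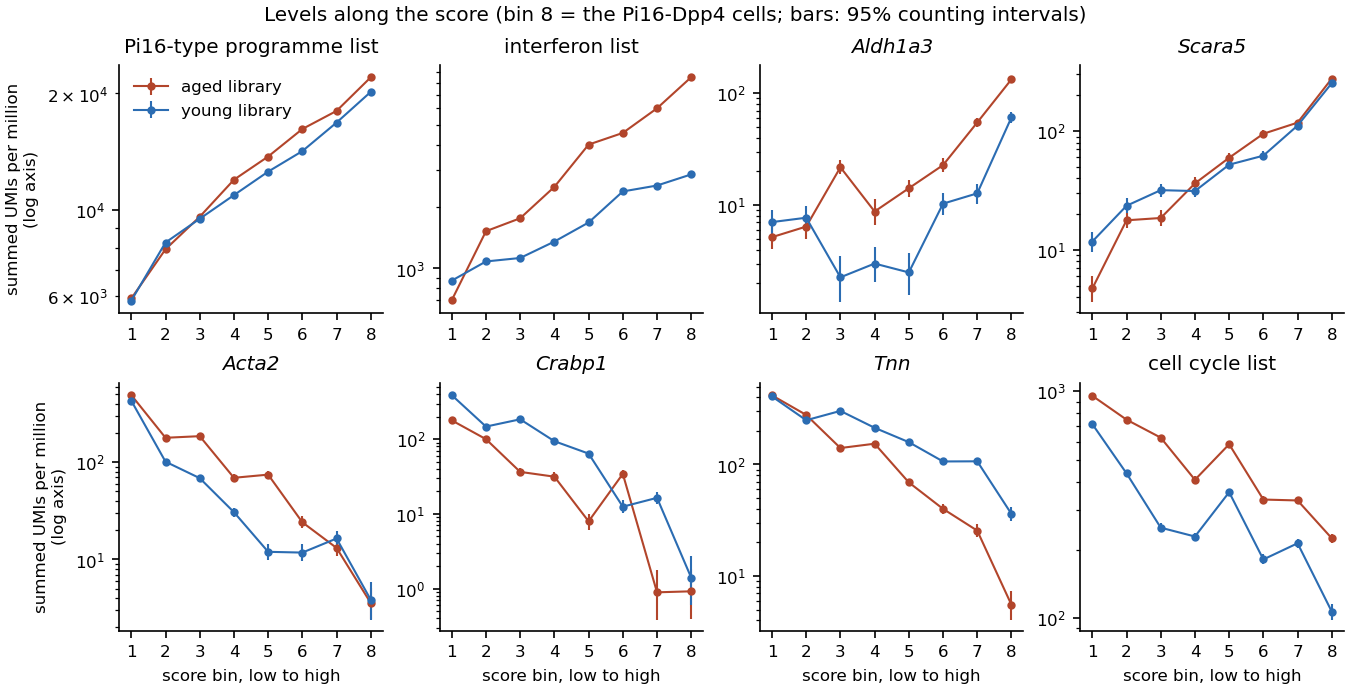
Levels in CPM (vertical log axes) in 8 score bins from low to high (horizontal axes; bin 8 is the Pi16-Dpp4 cells) in the aged and young libraries, with 95% counting intervals. The programme list, the interferon list, Aldh1a3 and Scara5 are highest in bin 8, and Acta2, Crabp1, Tnn and the cell cycle list are lowest there in the young library, as are Acta2, Tnn and the cell cycle list in the aged one.

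Pi16-Dpp4 cells overlapped little with other parts of the fibroblast pool that were defined in the same way. Of these 340 cells 0 were in the Acta2-Crabp1 set (the top 12% by Acta2, Tagln and Crabp1), and 15 (4.41%) were in the Cxcl14-C7 set (the top 12% by Cxcl14, C7 and Cilp), which also had 340 cells. In the Cxcl14-C7 set Pi16 had 424 CPM in aged and 507 CPM in young cells, and Scara5 154 and 124 CPM. The Acta2-Crabp1 set was lower, with 49.1 and 34.1 CPM of Pi16 and 1.21 and 6.61 CPM of Scara5. Complement genes without Cd55 summed to 7248 and 8211 CPM in aged and young Pi16-Dpp4 cells and to 8940 and 8325 CPM in the Cxcl14-C7 set. No gene was left out for having chosen the Cxcl14-C7 set, so C7, a complement component, may add to the sum there. That group of genes was shared, and other traits were shared in part. In the Cxcl14-C7 set Clec3b had 624 and 566 CPM in aged and young cells. The programme list had 15757 and 13876 CPM there and the cell cycle list 266 and 246 CPM. Each lay between its levels in Pi16-Dpp4 cells and in other fibroblasts. Aldh1a3, in contrast, had only 3.77 and 8.86 CPM in the Cxcl14-C7 set.

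Markers of other cell types were low in the Pi16-Dpp4 cells. Macrophage, mural, T cell and adipocyte sums were below those of other fibroblasts in both libraries, but some other sums were above. The 6 macrophage markers, which include the 3 genes of the gate, summed to 17.6 and 19.6 CPM in aged and young Pi16-Dpp4 cells, with C1qa at 1.38 and 0.874 CPM. Endothelial markers summed to 15.05 and 29.4 CPM, against 18.8 and 12.5 CPM in other aged and young fibroblasts. Pecam1 was most of this sum in Pi16-Dpp4 cells, with 10 cells holding 77.4% and 81.7% of its UMIs. Mural markers summed to 4.59 and 12.9 CPM, T cell markers to 0.345 and 4.54 CPM, and adipocyte markers to 0.345 and 0.699 CPM. Of the 4 T cell markers 3 (Cd3e, Cd3g and Trac) had 0 UMIs in aged Pi16-Dpp4 cells, which allows up to 0.345 CPM. Neutrophil markers summed to 84.5 and 49.6 CPM, against 39.6 and 199 CPM in other aged and young fibroblasts. Keratinocyte markers summed to 8.96 and 17.5 CPM against 7.53 and 9.18. In the aged Pi16-Dpp4 cells 10 cells held 93.6% of the S100a8 UMIs, and of the 3588 haemoglobin UMIs in young Pi16-Dpp4 cells 3542 were in 1 cell. The part of these cells in the results was not tested.

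The largest difference between the ages within Pi16-Dpp4 cells was in genes induced by interferon. Interferons are antiviral cytokines, and the genes they induce include inhibitors of viral RNA, guanylate-binding and immunity-related GTPases and the chemokines that attract T cells. Of 30 such genes 24 were 1.5-fold or more higher in aged than in young Pi16-Dpp4 cells and 0 were lower, where 4.33% of all genes were higher. In other fibroblasts 18 of 30 were higher, where 1.31% of all genes were. The median log2 ratio of aged over young was 1.26 in Pi16-Dpp4 cells and 0.63 in other fibroblasts, against 0.05 and 0.03 over all genes. The list was drawn up with earlier results of these data known.

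Ifit1, an inhibitor of viral RNA translation, had 915 CPM in aged and 135 CPM in young Pi16-Dpp4 cells, a ratio of 6.80 (6.31 to 7.33). In other fibroblasts it had 197 CPM in the aged and 46.0 CPM in the young library. Rsad2, or viperin, had 514 and 123 CPM in aged and young Pi16-Dpp4 cells, against 114 and 37.9 CPM in the others. The aged Pi16-Dpp4 cells were the highest of the 4 sets for both genes. In the young Pi16-Dpp4 cells 10 cells held 69.2% of the Ifit1 UMIs, and leaving out the 10 highest cells of each set gave a log2 ratio of aged over young of 3.88 instead of 2.72.

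The chemokines of this list attract T cells through the receptor Cxcr3. Cxcl10 had 2137 CPM in aged and 519 CPM in young Pi16-Dpp4 cells, a ratio of 4.12 (3.96 to 4.28), and 605 and 266 CPM in other aged and young fibroblasts. Cxcl9 had 557 and 78.8 CPM in aged and young Pi16-Dpp4 cells, against 280.1 and 81.0 CPM in the others. Cxcl9 was higher in both aged sets than in the young. Its log2 ratio of Pi16-Dpp4 cells over others in the young library was -0.04, and -1.36 without the 10 highest cells of each set, so the like levels in young cells rest on these cells. In myeloid barcodes Cxcl10 had 46.7 CPM in the aged and 219.8 CPM in the young library, and Ifit1 16.7 and 45.3 CPM, lower in the aged library for both genes.

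Cytoplasmic GTPases and signalling genes followed. Gbp2 had 407 and 103 CPM in aged and young Pi16-Dpp4 cells, against 119 and 58.9 CPM in the others, and Irgm1 had 180.0 and 33.4 CPM against 46.4 and 19.1. Parp14, an ADP-ribosyltransferase outside the list that interferon is known to induce, was 3.87-fold higher in aged Pi16-Dpp4 cells (3.52 to 4.26). Cmpk2, a mitochondrial nucleotide kinase whose gene neighbours Rsad2, and Trim30c were higher by ratios of 7.18 and 7.39, at 30.1 and 42.6 CPM in aged Pi16-Dpp4 cells. The transcription factor Irf1 was not among the raised genes, with 65.8 and 69.2 CPM in aged and young Pi16-Dpp4 cells.

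**Figure D4:**
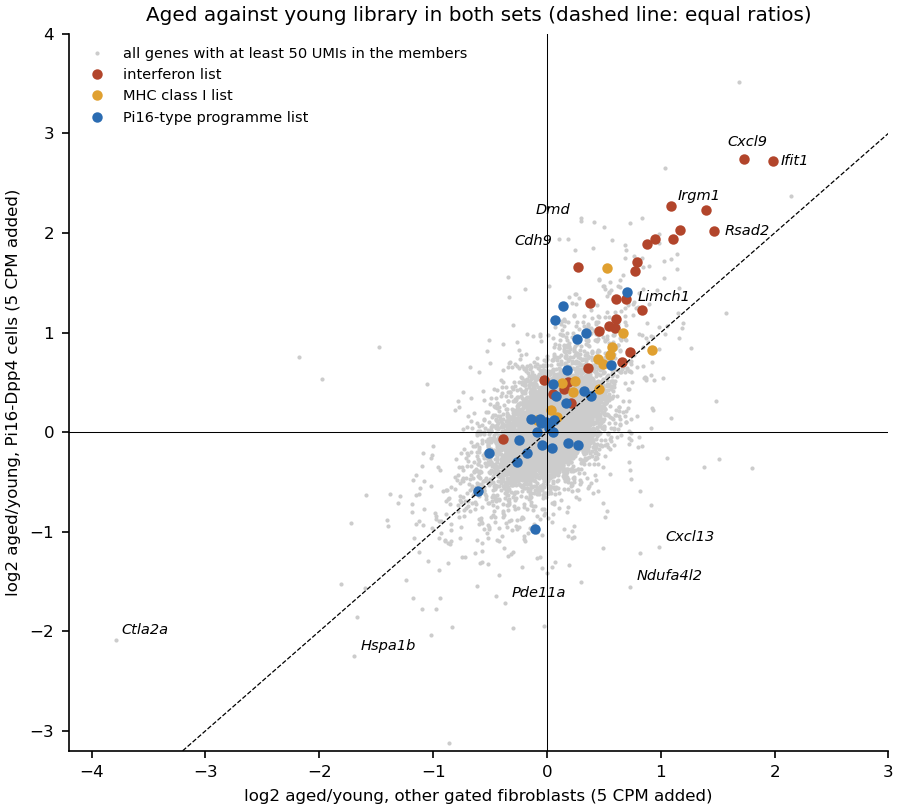
Log2 ratio of aged over young in Pi16-Dpp4 cells (vertical axis) against that in other fibroblasts (horizontal axis), 5 CPM added, for 10203 genes with at least 50 UMIs in Pi16-Dpp4 cells; 3 genes lie outside the axes. Interferon genes such as Ifit1, Cxcl9 and Irgm1 lie above the dashed line of equal ratios, while Ndufa4l2 and Cxcl13 lie far below it.

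The difference was spread over the cells. In single Pi16-Dpp4 cells the median of the summed interferon list was 62.0 UMIs per 10000 in the aged and 20.05 in the young library, against 11.8 and 9.63 in other aged and young fibroblasts. The quartiles were 29.7 and 121 in aged and 11.9 and 33.5 in young Pi16-Dpp4 cells, so the distributions overlapped. A level of 39.4, the 90th percentile of young other fibroblasts, was passed by 130 of 199 aged Pi16-Dpp4 cells, 65.3% (58.3 to 71.9), and by 30 of 141 young ones, 21.3% (14.8 to 29.0). In other fibroblasts it was passed by 283 of 1163 aged cells, 24.3% (21.9 to 26.9), and 133 of 1331 young cells, 9.99%. Cells of 1 library share their source and are not replicates.

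**Figure D5:**
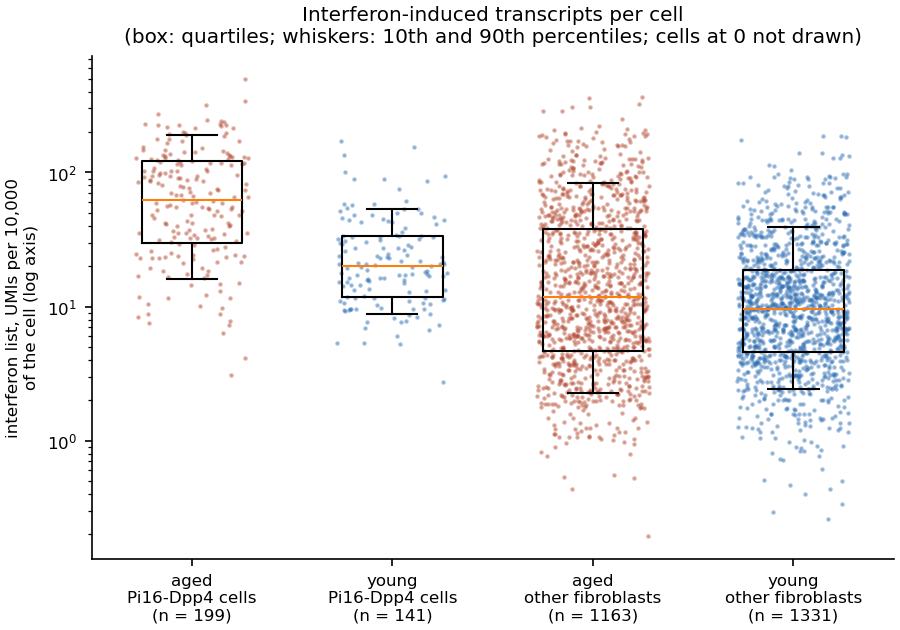
Summed UMIs of the 30 interferon genes per 10000 UMIs of the cell (vertical log axis) in aged and young Pi16-Dpp4 cells and aged and young other fibroblasts; each point is a cell, boxes give quartiles and whiskers the 10th and 90th percentiles. Medians are 62.0, 20.05, 11.8 and 9.63; the 16 aged and 16 young other fibroblasts at 0 are not drawn.

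Along the score bins the interferon list rose at both ages, and the aged library rose further. From the lowest to the highest bin its summed level was 702, 1518, 1754, 2492, 3998, 4555, 6000 and 8499 CPM in the aged library, and 873, 1082, 1125, 1351, 1673, 2367, 2529 and 2865 CPM in the young. In the lowest bin the aged level was below the young, and in the highest it was the furthest above it. The Cxcl14-C7 set had 5466 and 1875 CPM in aged and young cells, and the Acta2-Crabp1 set 819 and 696 CPM. A higher aged level was thus also seen in the Cxcl14-C7 set, so it was not particular to the Pi16-Dpp4 cells. Ifit1 had 479 and 31.0 CPM in aged and young cells of the Cxcl14-C7 set, against 915 and 135 CPM in Pi16-Dpp4 cells. The Acta2-Crabp1 set differed little between the ages.

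Promoters of the interferon genes were searched for letters that interferon-activated factors are known to read. Factors of the IRF family bind repeats of GAAA spaced by a pair of bases. The motif GAAANNGAAA was searched on both strands in the 250 bases before each gene's start, from RefSeq sequences of the GRCm38.p6 build. The submitters' processing notes name the GRCm38/mm10 genome. It was in 14 of 22 interferon-list genes with a sequence (63.6%), in 2 of 24 programme genes (8.33%), and in 936 of 27025 genes in all (3.46%). The 4 interferon genes with the highest aged level among those named for their ratio are given 5' to 3' on the gene's strand, with motif matches in capitals. TTTCNNTTTC is the same motif on the other strand.
Cxcl10, chr5:92348890-92349139, minus strand: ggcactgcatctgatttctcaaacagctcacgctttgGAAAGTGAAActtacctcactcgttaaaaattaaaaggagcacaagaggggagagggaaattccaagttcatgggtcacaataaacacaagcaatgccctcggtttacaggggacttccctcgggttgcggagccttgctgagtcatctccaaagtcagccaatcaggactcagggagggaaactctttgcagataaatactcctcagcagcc
Ifit1, chr19:34640639-34640888, plus strand: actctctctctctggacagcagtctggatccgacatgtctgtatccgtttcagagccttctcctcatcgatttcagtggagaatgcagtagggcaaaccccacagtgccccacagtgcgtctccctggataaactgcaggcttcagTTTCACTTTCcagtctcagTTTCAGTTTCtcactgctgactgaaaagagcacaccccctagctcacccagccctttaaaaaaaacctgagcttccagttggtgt
Cxcl9, chr5:92328080-92328329, minus strand: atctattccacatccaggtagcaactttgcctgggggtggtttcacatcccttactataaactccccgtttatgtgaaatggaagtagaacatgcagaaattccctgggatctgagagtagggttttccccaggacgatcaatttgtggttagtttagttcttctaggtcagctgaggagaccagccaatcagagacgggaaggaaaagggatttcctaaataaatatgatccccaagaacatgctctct
Rsad2, chr12:26456453-26456702, minus strand: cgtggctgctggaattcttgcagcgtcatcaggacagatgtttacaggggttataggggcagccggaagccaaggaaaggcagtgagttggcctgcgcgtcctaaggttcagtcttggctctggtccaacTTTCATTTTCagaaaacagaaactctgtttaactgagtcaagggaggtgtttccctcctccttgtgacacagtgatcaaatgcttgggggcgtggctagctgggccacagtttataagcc
Ifit1 holds 2 matches, Cxcl10 and Rsad2 hold 1 each, and these letters are not in the Cxcl9 window. A match is a description of the sequence, and binding was not measured.

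MHC class I genes, which display peptides to T cells, were higher as well. Of 14 genes of this list 7 in Pi16-Dpp4 cells and 2 in other fibroblasts were 1.5-fold or more higher in the aged library, where 4.33% and 1.31% of all genes were. B2m, the shared light chain, had 1978 and 1381 CPM in aged and young Pi16-Dpp4 cells, against 1049.7 and 884 CPM in the others. Nlrc5, the activator of MHC class I transcription, had 47.4 and 11.7 CPM against 11.2 and 6.22. H2-Q6 was 2.46-fold higher in aged Pi16-Dpp4 cells (1.85 to 3.32), though H2 genes are near-identical and may share reads.

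Over all genes with at least 50 UMIs in Pi16-Dpp4 cells, 500 of 10203 (4.90%) were 1.5-fold or more higher and 278 (2.72%) lower in the aged library. In other fibroblasts 231 of 17656 genes with at least 20 UMIs (1.31%) were higher and 242 (1.37%) lower. The smaller UMI total of the Pi16-Dpp4 cells, 8705373 aged and 5723139 young against 64404214 and 61576375 for the others, gives these ratios a larger counting error, so the percentages are not compared. Of the 15 genes named for the highest ratios 7 were in the interferon list, and the others were Parp14, Cmpk2, Trim30c, Bdnf, Cdh9, Dmd, Or2v1 and Ptgs2os.

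Bdnf, a neurotrophin, had 39.9 CPM in aged and 5.77 CPM in young Pi16-Dpp4 cells, against 7.48 and 3.82 CPM in other fibroblasts. Dmd, the gene of dystrophin, had 117 and 22.5 CPM against 12.2 and 8.96, and the neuronal cadherin Cdh9 had 45.7 and 8.21 CPM against 6.72 and 5.29. All 3 were highest in aged Pi16-Dpp4 cells. Their UMIs were concentrated, with 58.5%, 64.8% and 65.8% of them in 10 aged cells. Ptgs2os, an RNA antisense to Ptgs2, had 204 and 47.9 CPM, and the sources do not state whether counting used the strand.

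For Cdh9 and Dmd the ratio of aged over young was larger in Pi16-Dpp4 cells than in other fibroblasts, by 4.38 (3.14 to 6.13) and 3.81 times (3.08 to 4.72). By the same rule 94 genes had ratios that differed between the sets with the whole interval beyond 1.5-fold, 59 larger and 35 smaller in Pi16-Dpp4 cells. Only genes whose own age ratio in Pi16-Dpp4 cells had its whole interval beyond 1.5-fold could enter. That filter favours a gap between the sets, so the 94 are a description without a share over all genes. Negr1, a neuronal adhesion protein, had 25.2 and 10.8 CPM in aged and young Pi16-Dpp4 cells, against 3.94 and 7.73 CPM in the others. Ccn2, a matrix protein induced by TGF-beta and mechanical load, had 40.1 and 12.6 CPM against 33.5 and 43.5, and Wnt5a had 7.35 and 2.45 CPM against 13.1 and 16.3. Ccn2 and Wnt5a were therefore higher with age in Pi16-Dpp4 cells and slightly lower in the others.

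Several programme genes also differed between the ages. Of 31, 7 were 1.5-fold or more higher and 2 were lower in aged Pi16-Dpp4 cells, and 22 were within that range, where 4.33% of all genes were higher and 2.59% lower. Procr, the protein C receptor, had 711 and 355 CPM in aged and young Pi16-Dpp4 cells, against 319 and 250.05 CPM in the others. Anxa3, an annexin, had 329.9 and 171 CPM against 93.4 and 76.8, and Limch1, which acts on non-muscle myosin, 67.4 and 22.4 CPM against 7.13 and 2.45. Wnt2, a Wnt ligand, and Has1 had ratios of 1.65 and 1.54, and the log2 ratio of Has1, 0.62 with 5 CPM added, was 0.56 under TMM scaling, below the 1.5-fold mark.

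The 2 lower programme genes were Tmem100 and Ackr3. Tmem100, a membrane protein known from endothelial BMP signalling, had 74.6 CPM in aged and 151 CPM in young Pi16-Dpp4 cells, a ratio of 0.493 (0.444 to 0.546), against 31.0 and 33.8 CPM in other fibroblasts. Ackr3, a scavenger of Cxcl12, had 277 and 419.5 CPM against 147 and 226. Tmem100 differed in Pi16-Dpp4 cells and hardly in the others, whereas Ackr3 was lower in both sets. Its ligand Cxcl12 had 171 and 305 CPM in aged and young Pi16-Dpp4 cells, against 216 and 432 CPM, again lower in both aged sets.

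Ligands and their antagonists included further genes raised with age. Chrdl1, an antagonist of BMPs, had 171 and 58.5 CPM in aged and young Pi16-Dpp4 cells, against 46.8 and 46.3 CPM in the others. Fgf2 was 1.83-fold, Sema3d 1.89-fold and Igfbp4 1.90-fold higher in aged Pi16-Dpp4 cells. Apod, a lipid-binding lipocalin, had 1125 and 608 CPM against 538 and 512. Apoe, another lipid carrier, went the other way, with 31.0 and 98.7 CPM in aged and young Pi16-Dpp4 cells and 61.7 and 229 CPM in the others. Of 31 growth factor genes 6 were higher and 4 lower in aged Pi16-Dpp4 cells, set against 4.33% and 2.59% of all genes.

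Among the 15 genes lowest in aged Pi16-Dpp4 cells were signalling genes of several kinds. Ndufa4l2, a mitochondrial protein induced by low oxygen, had 30.4 CPM in aged and 98.9 CPM in young Pi16-Dpp4 cells, against 177 and 104 CPM in other fibroblasts. Pde11a, a phosphodiesterase of cyclic nucleotides, had 6.89 and 34.1 CPM against 52.0 and 68.5. Bdkrb1, a bradykinin receptor induced by injury, had 6.43 and 30.8 CPM against 59.3 and 82.8. For these 3 the aged Pi16-Dpp4 cells were the lowest of the 4 sets, and Ndufa4l2 was higher with age in the others.

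Other genes were lower in the aged library both in Pi16-Dpp4 cells and in other fibroblasts. Ctla2a, a cysteine protease inhibitor, had 84.3 and 374 CPM in aged and young Pi16-Dpp4 cells, against 43.7 and 669 CPM in the others. The heat shock gene Hspa1a had 23.7 and 98.7 CPM in aged and young Pi16-Dpp4 cells, against 39.7 and 137 CPM in the others. Hspa1b, a near-identical copy that may share reads with it, had 22.6 and 127 CPM against 43.9 and 153. Of 27 immediate early and dissociation stress genes 9 in Pi16-Dpp4 cells and 11 in other fibroblasts were 1.5-fold or more lower in the aged library and 0 were higher, where 2.59% and 1.37% of all genes were lower. The list summed to 10772 and 14009 CPM in aged and young Pi16-Dpp4 cells. Its part in the other differences was not tested.

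Cxcl13, which attracts B cells, differed in direction between the sets. It had 269 CPM in aged and 606 CPM in young Pi16-Dpp4 cells, against 202 and 99.5 CPM in other aged and young fibroblasts. In the young Pi16-Dpp4 cells 10 cells held 88.0% of its UMIs. Without the 10 highest cells of each set the log2 ratio of aged over young in Pi16-Dpp4 cells was 0.81 instead of -1.16, so the lower aged level rests on these cells.

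Senescence is the subject of the series. Of 19 senescence genes with at least 20 UMIs, 0 were 1.5-fold or more higher, where 4.33% of all genes were, and 3 were lower, where 2.59% were, with a median log2 ratio of -0.11. The cell cycle inhibitor Cdkn1a, or p21, had 225 CPM in aged and 324 CPM in young Pi16-Dpp4 cells. It is named for the subject of the series after its values were seen. In the score bins just below these cells Cdkn1a had 218, 276, 312 and 267 CPM in the aged library. The young library had 347, 320, 343 and 453 CPM there, so a lower aged level was not particular to the Pi16-Dpp4 cells. Cdkn2a, which encodes p16 and Arf, had 2.30 and 8.56 CPM in aged and young Pi16-Dpp4 cells, and 10 cells held 100% and 98.0% of its UMIs. In other fibroblasts Cdkn2a was 1.5-fold or more lower in the aged library as well. Cdkn1c, or p57, had 116 and 252 CPM in aged and young Pi16-Dpp4 cells, against 68.8 and 132 CPM in the others. Cell cycle genes were low in Pi16-Dpp4 cells at both ages, and 5 of 21 were 1.5-fold or more higher in the aged, against 13 of 24 in other fibroblasts, where 4.33% and 1.31% of all genes were. Without the 10 highest cells of each set the log2 ratio of aged over young in Pi16-Dpp4 cells was 0 instead of 1.67 for Ube2c and 0.60 instead of 1.66 for Cenpe.

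Collagen genes differed with age within the Pi16-Dpp4 cells about as seldom as all genes did, and other matrix genes differed in both directions. Of 17 collagen genes with at least 20 UMIs, 0 were 1.5-fold or more higher and 1, Col15a1, was lower, where 4.33% of all genes were higher and 2.59% lower, with a median log2 ratio of 0.04. The log2 ratio of Col15a1 was -0.94, and -0.43 without the 10 highest cells of each set. Of 16 matricellular genes 1 was higher and 3 were lower. Ltbp1 had a ratio of 2.72 (2.57 to 2.88) in Pi16-Dpp4 cells and 2.01 in other fibroblasts. Bgn, the proteoglycan biglycan, had 868 and 1375 CPM in aged and young Pi16-Dpp4 cells, against 1554 and 2009.7 CPM in the others. Ctsk, a collagen-degrading cathepsin, had 408 and 733 CPM against 423 and 836, lower in the aged library in both sets. Plau, the urokinase gene, was 1.99-fold higher in aged Pi16-Dpp4 cells and 1.81-fold higher in aged other fibroblasts.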

How the data were processed

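The authors deposited raw UMI counts for each gene in each barcode. Per the file headers the tool was Cell Ranger, version 8.0.1, whereas the version in the submitters' processing notes is 9.0; these notes also list Seurat 4, STAR and the GRCm38/mm10 genome. The 2 libraries held 4379 aged barcodes with 107865898 UMIs and 4932 young barcodes with 111810068 UMIs. Barcodes with at least 500 UMIs, at least 200 genes and under 15% mitochondrial UMIs were kept (4210 aged, 4661 young). Scrublet, run through scanpy 1.11.5, called 2 aged and 3 young doublets, 0.0475% and 0.0644%, so it had in effect not worked and doublets have to be assumed to remain. The libraries shared 3 barcodes, of which 0 were Pi16-Dpp4 cells.

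UMIs were summed per set and library and scaled to CPM. CPM, ratio and share intervals were exact Poisson, conditional binomial and Clopper-Pearson intervals, and ratios of ratios had Wald intervals on the log scale. Interval code was tested on simulated counts. Fold calls used 5 CPM added to each side, at 1.5-fold for age (at least 50 UMIs) and 2-fold in both libraries between sets, and at 1.5-fold for lists (at least 20 UMIs). TMM factors came from edgeR 4.0.16.

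The Pi16-Dpp4 cells, gene lists and tests were chosen with earlier results of these data known. Named genes were the score and programme genes, the 15 highest and 15 lowest between sets and between ages past fixed filters, the 2 highest and 2 lowest of each list, and the 5 highest and 5 lowest ratios of ratios. The rule passes over haemoglobin, ribosomal, mitochondrial, immunoglobulin, unnamed and sex-linked genes. A Coch-Wif1 set was also planned, but only 136 fibroblasts scored above 0 and it is not compared.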

Additional observations from a re-analysis of the deposited data

How the results depend on the processing

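No paired analysis was possible because each age has 1 library. The ratio of aged over young shares of Pi16-Dpp4 cells was between 1.33 (top 20%) and 1.84 (top 8%) under 10 alternatives and 0.995 with the top 12% taken within each library, which fixes both shares by construction. The counts of genes between ages and between sets stayed within 1.5 times under the other alternatives, except as follows. Without Pi16 in the score, 136 genes were lower in Pi16-Dpp4 cells than in other fibroblasts. With at least 200 UMIs, 176 genes were lower in aged Pi16-Dpp4 cells. Without the 10 cells with the most UMIs of each gene in each set, 174 genes were lower in aged Pi16-Dpp4 cells, and 65 were higher and 419 lower in Pi16-Dpp4 cells than in other fibroblasts. These 10 cells were 5.03% of aged and 7.09% of young Pi16-Dpp4 cells and a smaller share of the others, so by construction the set is thinned more. Under that setting the log2 ratio of aged over young turned to 0.81 for Cxcl13, 0.42 for Eln, 0.21 for Cilp and -1.37 for S100a9, and the log2 ratio of Pi16-Dpp4 cells over others turned to -0.44 for S100a8, -0.11 for S100a9 and -0.79 for Dlk1 in the aged library and to -0.18 for Pecam1 and -0.57 for Dlk1 in the young. With the mean over cells, Cemip turned to -0.14 for aged over young. Why these turned was not tested beyond the left-out cells. With each fibroblast thinned to 10000 UMIs before scoring, some log2 ratios of Pi16-Dpp4 cells over others in the young library moved far. That of H2ac24 was -1.62 instead of -4.13 and that of Spp1 -1.63 instead of -3.99. Tnn moved the other way, to -3.59 instead of -2.48. TMM scaling gave 425 higher and 339 lower genes in aged Pi16-Dpp4 cells. The interferon list's median log2 ratio of aged over young in Pi16-Dpp4 cells was between 1.003 and 1.26 over the alternatives run. Depth limits genes with few UMIs: a gene at 0 in Pi16-Dpp4 cells may still have up to 0.345 CPM in the aged and 0.524 CPM in the young library.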

Other observations

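Among genes the text has not described, several related to the prostaglandin, protease and BMP groups had unequal levels in Pi16-Dpp4 cells. Pla1a, a phospholipase that acts on phosphatidylserine, had 259 CPM in aged and 147 CPM in young Pi16-Dpp4 cells, against 56.9 and 43.6 CPM in other aged and young fibroblasts. Adamts5, which cleaves proteoglycans, had 1043 and 821 CPM against 440.4 and 371. Both were higher in Pi16-Dpp4 cells of each library. Bmp7, a BMP ligand, was low but higher there too, with 14.4 and 12.8 CPM against 1.48 and 1.54. Dact1, a modulator of Wnt signalling, had 99.5 and 87.2 CPM against 28.3 and 34.7.

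Timp1, an inhibitor of metalloproteinases, had 2019.7 CPM in aged and 1705 CPM in young Pi16-Dpp4 cells, against 4271 and 2252 CPM in other aged and young fibroblasts, so its difference between the ages was smaller in Pi16-Dpp4 cells. Tgfbi, a matrix protein induced by TGF-beta, had 14.6 and 39.0 CPM against 129 and 90.1, lower with age in Pi16-Dpp4 cells and higher in the others, and its ratio of ratios was 0.261 (0.210 to 0.326). Gas6, a ligand of receptors for dying cells, had 78.9 and 142 CPM against 120.3 and 280.4, lower in the aged library in both sets.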
